A study of Mus musculus with 18 samples.

Results

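The genes of the mRNA decay and surveillance machinery were examined in embryonic mouse cortex by RNA-seq and Ribo-seq. The set holds 46 genes chosen by name, and all 46 were found among the 55153 genes of the RNA-seq table and among the 14348 genes used of the Ribo-seq table. They comprise 16 genes of deadenylation, 9 of decapping and 5-prime exonucleolysis, 10 of the RNA exosome, 9 of nonsense-mediated decay and 2 cytoplasmic poly(A)-binding proteins. All 46 passed the filter on low counts in each comparison.

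Most mRNAs are destroyed by first losing their poly(A) tail, through the Pan2-Pan3 and Ccr4-Not deadenylases. The decapping enzyme Dcp2 with its cofactors then exposes the body of the transcript to the 5-prime exonuclease Xrn1, while the exosome degrades RNA from the other end. Nonsense-mediated decay uses Upf and Smg proteins to remove transcripts with premature stop codons, and m6A, the methyl mark that Mettl3 writes and Fto can erase, is known to mark mRNAs for deadenylation through reader proteins.

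Cortices were taken at E15.5 from Ctrl mice, from *F*-cKO mice with floxed *Fto* and *Emx1*-Cre, and from *M*-cKO mice with floxed *Mettl3* and *Emx1*-Cre. The labels give the strain as C57BL/6, and the study's methods describe floxed lines of a mixed C57/BL6 and 129 background crossed to *Emx1*-Cre mice. Ctrl mice are wild type per the labels, and the study calls its postnatal controls littermates. Each group had 3 RNA-seq and 3 Ribo-seq libraries, 18 in all, and counted reads per library lay between 18504094 and 22592406 in RNA-seq and between 10973699 and 35853227 in Ribo-seq. *Emx1*-Cre recombines in the cortical excitatory lineage, so blood, vessels, microglia and immigrant interneurons in the same tissue keep the gene. In such bulk samples, fewer cells of a type and less RNA per cell cannot be told apart, and *P* values measure the spread between these libraries. The labels call the libraries biological repeats but give no litter, and the Ribo-seq methods can be read as naming a single litter, so effects of litter and genotype cannot be told apart.

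RNA-seq levels are given as the deposited FPKM and Ribo-seq levels as the deposited RPKM, which are both scaled to gene length and library size. Fold changes (log2, ± SE) came from the deposited counts after TMM scaling, and adjusted *P* values from edgeR's quasi-likelihood test with Benjamini-Hochberg adjustment over all genes. The threshold for a call was an adjusted *P* of 0.05. Both knockouts were compared with the same 3 Ctrl libraries.

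The targeted genes were checked first. *Fto* RNA measured 10.8, 11.2 and 8.37 FPKM in Ctrl and 3.26, 7.56 and 2.43 FPKM in *F*-cKO, so that *F*-cKO replicate 2 lay close to the lowest Ctrl library (log2 fold change −1.21 ± 0.33, adjusted *P* = 0.0298). *Fto* footprints were low in every *F*-cKO library, with 3.91, 2.11 and 4.04 RPKM against 17.6 to 25.9 RPKM in Ctrl, yet the edgeR test of this comparison did not call them (log2 fold change −2.67 ± 0.25, adjusted *P* = 0.35). *Mettl3* RNA was higher in *M*-cKO (8.61, 7.82 and 8.34 FPKM) than in Ctrl (5.84, 6.43 and 5.07 FPKM), whereas its footprints were lower, at 6.02 to 6.78 RPKM against 9.16 to 9.93 RPKM (log2 fold change −0.55 ± 0.09, adjusted *P* = 0.0157). Counts over the whole gene do not isolate the excised part of either gene.

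In Ribo-seq, *F*-cKO replicate 2 stood apart. It was the shallowest library, its deviation from its group mean over all genes was 0.823 (root mean square, log2) against 0.225 to 0.558 in the other 8, and its summed level of 6 endothelial markers was 87.5 RPKM against 5.32 to 8.91 RPKM in Ctrl. It held the lowest of 9 values for 24 of the 46 decay genes, and genes in general were low in it, with a median log2 ratio to the Ctrl mean of −0.31 over all genes and −0.35 over the members.

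Cell type markers also differed between the RNA-seq groups. The summed level of 7 radial glia markers was 293 to 316 FPKM in *F*-cKO and 256 to 298 FPKM in *M*-cKO against 193 to 243 FPKM in Ctrl (4 of 7 called higher and 1 lower in *F*-cKO, 3 higher and 1 lower in *M*-cKO). That of 4 intermediate progenitor markers was 233 to 289 FPKM in *F*-cKO and 227 to 242 FPKM in *M*-cKO against 131 to 206 FPKM, with 3 of 4 called higher in *F*-cKO and 2 of 4 in *M*-cKO. Interneuron and ganglionic eminence markers summed to 121 to 164 FPKM in *M*-cKO against 85.9 to 87.1 FPKM in Ctrl, and 7 of 7 were called higher there. In *F*-cKO they summed to 82.3 to 113 FPKM, with 3 of 7 called higher. The 8 projection neuron markers summed to 855 to 876 FPKM in *F*-cKO and 953 to 976 FPKM in *M*-cKO against 762 to 784 FPKM in Ctrl, with 4 called higher and 0 lower in *F*-cKO and 5 higher and 2 lower in *M*-cKO. Sums of markers of cells outside the *Emx1* lineage were lower in *F*-cKO than in every Ctrl library for endothelium (37.7 to 43.3 against 49.4 to 54.3 FPKM), meningeal fibroblasts (2.69 to 9.39 against 11.03 to 22.0 FPKM) and erythroid cells (358 to 440 against 475 to 879 FPKM), with 1 of 6, 2 of 6 and 1 of 7 called lower. Their median log2 fold changes were 0.01, −1.19 and −0.53, so the endothelial markers did not fall as a list. Microglia markers overlapped with Ctrl (19.9 to 27.3 against 26.6 to 33.3 FPKM), with 0 of 7 called. In *M*-cKO the endothelial, meningeal and erythroid sums overlapped with Ctrl. The sums moved beside every RNA result below, and their part in those results was not tested.

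Every member was expressed in Ctrl cortex. RNA levels ran from 3.18 FPKM for *Exosc5*, a subunit of the exosome ring, to 66.1 FPKM for *Pabpc1*, the main cytoplasmic poly(A)-binding protein, with a median of 9.93 FPKM against 7.36 FPKM over the 12952 genes with at least 1 FPKM. The helicase *Ddx6* (60.2 FPKM) and the deadenylase *Cnot8* (42.8 FPKM) followed *Pabpc1*. The members differed little among the Ctrl libraries, with a median coefficient of variation of 4.35% in RNA-seq and 5.51% in Ribo-seq. In *F*-cKO the corresponding medians were 4.44% and 21.8%, so the *F*-cKO footprint values carry the largest error of the 6 groups. Some other genes varied more among the Ctrl libraries. Erythroid markers summed to 475 to 879 FPKM there, and 8 secretory markers, *Ttr* among them, to 68.7 to 788 FPKM.

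Footprints per RNA, the ratio of mean RPKM to mean FPKM and here called TE, had a median of 1.39 over the members in Ctrl and of 0.757 over all 12952 genes. Exosome genes had the highest group median (1.82) and included the highest member, *Exosc9*, at 6.19, while *Exosc7* reached 3.53. *Pabpc4* was the lowest at 0.0983, with 26.5 to 27.9 FPKM of RNA but only 2.56 to 2.75 RPKM of footprints, and its paralogue *Pabpc1* stood at 0.987. Within decapping the span was from 0.354 for *Dcp1b* to 2.81 for the nuclear exonuclease *Xrn2*. The length used is that of the whole gene model in both assays, so genes with long untranslated regions have a lower TE by construction. *Exosc9* overlaps the end of *Ccna2* in the RefSeq annotation, and 14 of the 46 members overlap another protein-coding gene. The RNA-seq counting is not stated to use strand, so reads of such neighbours cannot be told apart.

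**Figure D1:**
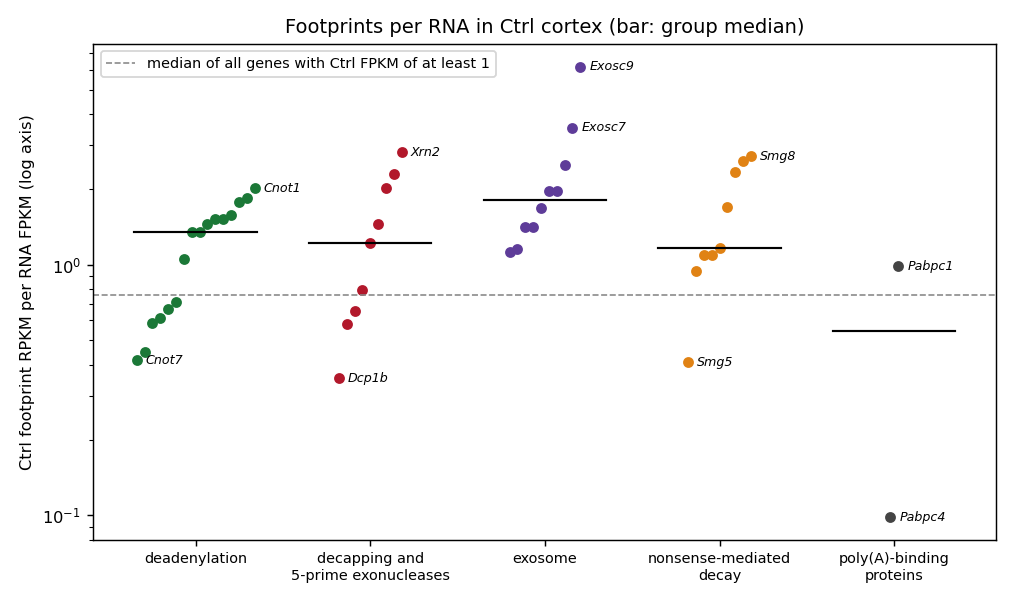
Footprints per RNA in Ctrl for each of the 46 genes (points), as mean Ribo-seq RPKM divided by mean RNA-seq FPKM on a log axis, grouped by role. Black bars are group medians and the dashed line is the median of all genes with at least 1 FPKM (0.757). *Exosc9* is the highest at 6.19 and *Pabpc4* the lowest at 0.0983.

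In *F*-cKO cortex, RNA of 11 of the 46 members rose and that of 0 fell, where 11.5% of all 16944 genes tested were higher and 9.57% lower (23.9% and 0% of the members). DESeq2 also gave 11 higher and 0 lower, where it called 12.4% of all genes higher and 9.75% lower. At an unadjusted *P* below 0.05 edgeR gave 17 higher and 1 lower (18.2% and 17.5% of all genes). The median log2 fold change of the members was 0.11 against −0.01 for all genes, 35 of 46 lay above 0 (48.4% of all genes did so), and in 23 all *F*-cKO libraries exceeded all Ctrl libraries (20.9% of all genes did so). The shift was present in each library, since the median log2 ratio of the members to the Ctrl mean was 0.11, 0.09 and 0.13 in the 3 *F*-cKO libraries and between −0.03 and 0.01 in the Ctrl libraries. Ctrl replicate 3, the shallowest RNA-seq library, held the lowest of 9 values for 19 of the 46 members, against 2 and 3 for the other Ctrl libraries. The count fell to 6 when Ctrl replicate 1, Ctrl replicate 3 or *F*-cKO replicate 2 was left out. The shares of all genes in those fits are not given, so whether the members' excess over all genes remained is not shown. *Cnot1*, *Cnot6*, *Cnot11* and *Dcp2* were called in all 11 alternative analyses.

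In *M*-cKO cortex the members moved both ways. RNA of 6 was higher and of 4 lower, where 15.5% of all 16968 genes were higher and 14.1% lower (13% and 8.7% of the members). Without the filter on low counts 10 were higher and 3 lower, which put the members' share of higher calls (21.7%) above that of the 30551 genes then tested (10.2%) instead of below it. The median log2 fold change of the members was 0.03 against −0.01 for all genes. *Smg8*, *Exosc4*, *Edc3*, *Smg6*, *Upf3b* and *Cnot7* were called in all 11 alternatives. The count of lower members was 2 without Ctrl replicate 3, *M*-cKO replicate 1 or *M*-cKO replicate 2, and the shares of all genes in those fits are not given.

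Compared directly, *M*-cKO had lower RNA than *F*-cKO for 12 members and higher RNA for 2, where 14.3% of all 16802 genes were lower and 13.1% higher (26.1% and 4.35% of the members). The higher members were *Smg8* (log2 difference 0.53 ± 0.09) and *Exosc4* (0.46 ± 0.08). The lower members were *Cnot1*, *Cnot6*, *Cnot7*, *Cnot10*, *Parn*, *Dcp2*, *Ddx6*, *Xrn2*, *Exosc9*, *Upf2*, *Upf3b* and *Smg1*, with log2 differences from −0.41 for *Exosc9* to −0.23 for *Ddx6*. Without *F*-cKO replicate 2 the lower count was 6, and without *M*-cKO replicate 2 it was 7. The 14.3% above is from the full fit, and the shares of all genes in these smaller fits are not given. *Cnot1*, *Cnot10*, *Dcp2*, *Upf3b*, *Smg8* and *Exosc4* were called in all 11 alternatives.

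**Figure D2:**
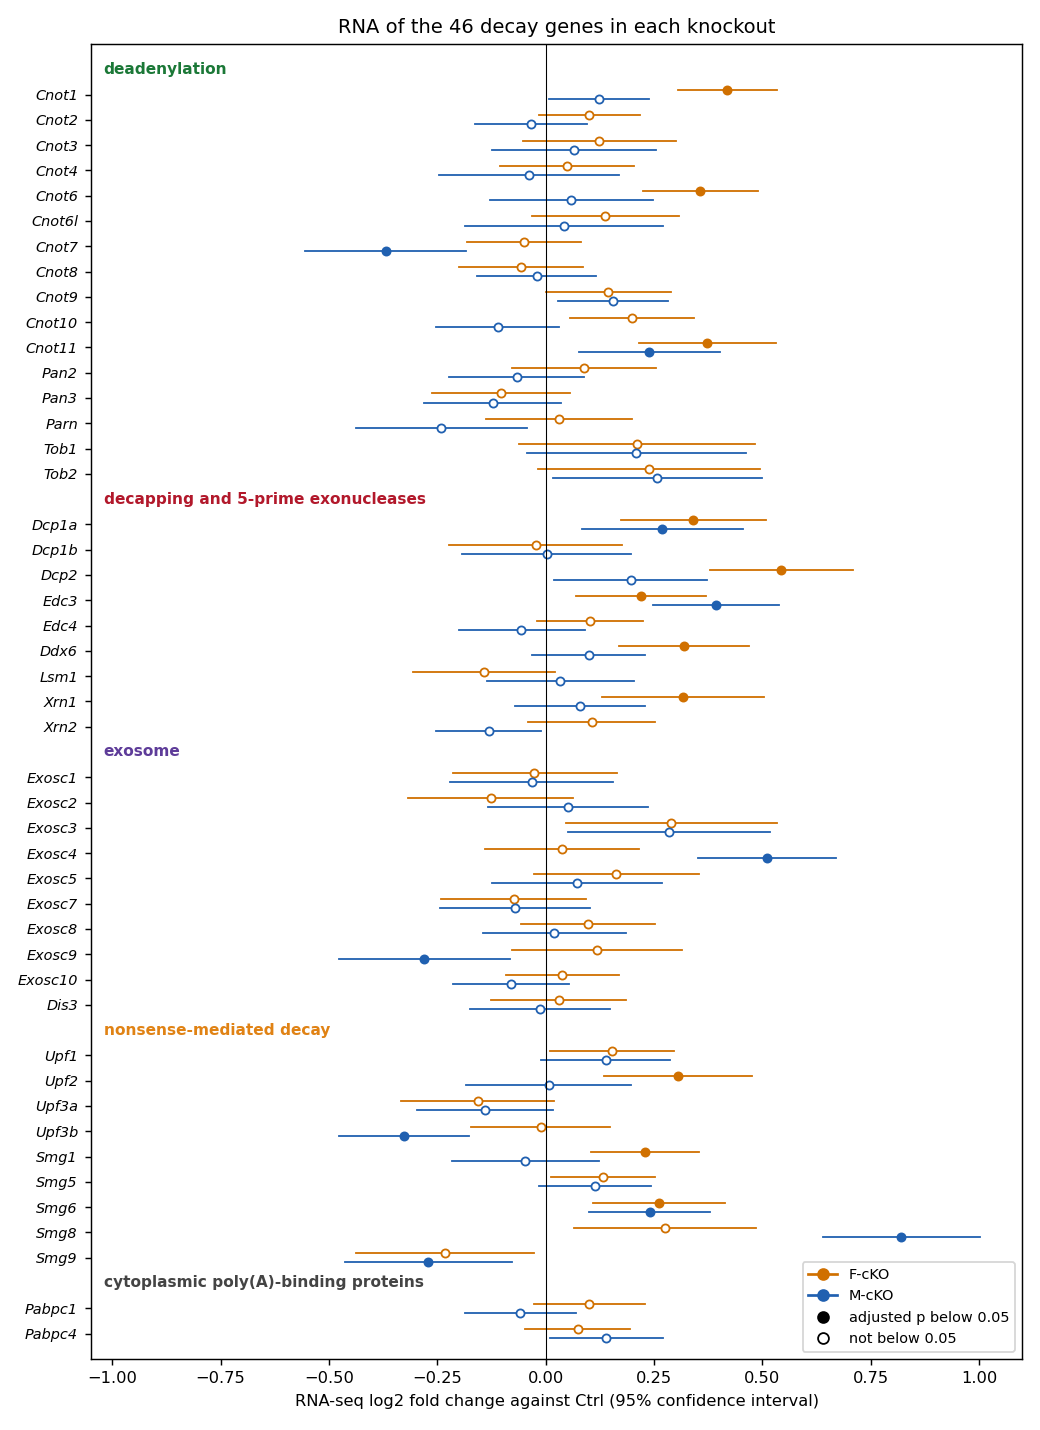
RNA-seq log2 fold change against Ctrl for the 46 genes with 95% confidence intervals, *F*-cKO in orange and *M*-cKO in blue, ordered by role. Filled points have an adjusted *P* below 0.05, which holds for 11 genes in *F*-cKO, all to the right of 0, and for 6 genes to the right and 4 to the left in *M*-cKO.

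Among the 16 deadenylation genes, 3 were higher in *F*-cKO and 0 lower (18.8% higher, against 11.5% of all genes), and 1 was higher and 1 lower in *M*-cKO (6.25% each way, against 15.5% and 14.1%). *Cnot1*, the scaffold of the Ccr4-Not complex, had 10.8, 10.8 and 10.6 FPKM in Ctrl and 14.5, 14.5 and 14.4 FPKM in *F*-cKO. The groups were far apart relative to their spread (log2 fold change 0.42 ± 0.05, adjusted *P* = 0.00294). In *M*-cKO *Cnot1* had 11.8, 11.6 and 11.8 FPKM, just above Ctrl, and was not called (0.12, adjusted *P* = 0.104). *Cnot11*, a subunit that binds the scaffold near its start, was higher in both knockouts, from 10.6 to 11.6 FPKM in Ctrl to 13.8 to 15.3 FPKM in *F*-cKO (0.37 ± 0.07, adjusted *P* = 0.00789) and 12.6 to 14.0 FPKM in *M*-cKO (0.24 ± 0.07, adjusted *P* = 0.0307, lost in 6 of 11 alternatives).

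The catalytic subunits come in paralogue pairs, between which no difference in fold change was tested. *Cnot6* had 30.2, 28.0 and 26.9 FPKM in Ctrl, 36.4, 36.2 and 37.4 FPKM in *F*-cKO and 30.8, 32.8 and 25.7 FPKM in *M*-cKO, and was called only in *F*-cKO (0.36 ± 0.06, adjusted *P* = 0.00505). Its paralogue *Cnot6l* was about 7 times less abundant, with 4.52, 4.25 and 4.01 FPKM in Ctrl, 4.59, 4.52 and 5.06 FPKM in *F*-cKO and 4.97, 4.62 and 3.66 FPKM in *M*-cKO. These *Cnot6l* groups touched or overlapped and no difference was called.

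*Cnot7*, a deadenylase that shares one position in the complex with *Cnot8*, had 33.3, 31.8 and 34.8 FPKM in Ctrl and 31.2, 32.9 and 33.1 FPKM in *F*-cKO. In *M*-cKO it had 27.6, 27.9 and 22.2 FPKM, below every Ctrl library (log2 fold change −0.37 ± 0.08, adjusted *P* = 0.00756). *Cnot8* RNA did not separate the groups, with 43.8, 44.0 and 40.8 FPKM in Ctrl, 44.0, 41.8 and 38.7 FPKM in *F*-cKO and 41.2, 41.2 and 45 FPKM in *M*-cKO. The ratio of mean *Cnot7* to mean *Cnot8* FPKM was 0.777 (Ctrl), 0.78 (*F*-cKO) and 0.61 (*M*-cKO). *Cnot7* overlaps *Vps37a*, whose RNA was 6.86 to 7.55 FPKM in Ctrl and 5.86 to 7.65 FPKM in *M*-cKO.

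*Tob1* and *Tob2*, adaptors that link Cnot7 and Cnot8 to poly(A)-binding protein, were not called. *Tob1* had 24.0, 21.3 and 16.6 FPKM in Ctrl, 25.0, 21.9 and 25.4 FPKM in *F*-cKO and 23.5, 26.0 and 22.7 FPKM in *M*-cKO, with Ctrl replicate 3 the lowest. *Tob2* had 5.64, 5.59 and 4.17 FPKM in Ctrl, 6.35, 6.31 and 5.68 FPKM in *F*-cKO and 5.86, 6.501 and 6.18 FPKM in *M*-cKO. Each knockout library of *Tob2* exceeded each Ctrl library, yet the adjusted *P* values were 0.166 and 0.0997. The Pan2-Pan3 deadenylase, *Parn* and the other Ccr4-Not subunits had log2 fold changes between −0.24 and 0.20 in either knockout, and none was called against Ctrl.

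Of the 9 decapping genes, 5 were higher in *F*-cKO and 0 lower (55.6% and 0%, against 11.5% and 9.57% of all genes). *Dcp2*, the enzyme that removes the cap, had 6.90, 6.47 and 5.83 FPKM in Ctrl and 9.52, 8.93 and 9.78 FPKM in *F*-cKO. No library overlapped, and this was the greatest rise among the members in *F*-cKO (log2 fold change 0.54 ± 0.07, adjusted *P* = 0.00341). In *M*-cKO *Dcp2* had 7.90, 7.44 and 6.80 FPKM, overlapping Ctrl, and was not called (0.20, adjusted *P* = 0.0874).

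The other genes called higher in *F*-cKO were *Dcp1a* (0.34 ± 0.07), the activator of Dcp2, *Ddx6* (0.32 ± 0.07), the helicase of decapping and translational repression, *Xrn1* (0.32 ± 0.08), which degrades the decapped RNA, and *Edc3* (0.22 ± 0.07), an enhancer of decapping. *Xrn1* was not called without *F*-cKO replicate 2 (adjusted *P* = 0.053), nor was *Ddx6* (0.0514) or *Edc3* (0.114). The *F*-cKO call of *Edc3* was lost in 8 of 11 alternatives that of *Xrn1* in 4 of 11 and that of *Ddx6* in 2 of 11. *Edc3* also rose in *M*-cKO, with 10.9, 10.5 and 10.4 FPKM against 8.40, 8.06 and 7.53 FPKM in Ctrl (0.39 ± 0.07, adjusted *P* = 0.00134) and 9.67, 9.37 and 9.13 FPKM in *F*-cKO. The difference between the knockouts was not called (0.16 ± 0.06, adjusted *P* = 0.0722).

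*Dcp1a* had 4.05, 4.02 and 3.88 FPKM in Ctrl, 5.02, 4.79 and 5.43 FPKM in *F*-cKO and 5.09, 5.10 and 4.30 FPKM in *M*-cKO, above Ctrl in all 6 knockout libraries. It rose by 0.34 ± 0.07 in *F*-cKO (adjusted *P* = 0.0137) and by 0.27 ± 0.09 in *M*-cKO (adjusted *P* = 0.0332, lost in 5 of 11 alternatives). Its paralogue *Dcp1b* overlapped among groups, with 5.93, 6.20 and 6.90 FPKM in Ctrl, 5.70, 6.53 and 6.62 FPKM in *F*-cKO and 6.71, 6.67 and 5.78 FPKM in *M*-cKO. The ratio of mean *Dcp1a* to mean *Dcp1b* FPKM was 0.628 (Ctrl), 0.809 (*F*-cKO) and 0.756 (*M*-cKO). *Edc4*, *Lsm1* and *Xrn2* were not called against Ctrl in RNA-seq.

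**Figure D3:**
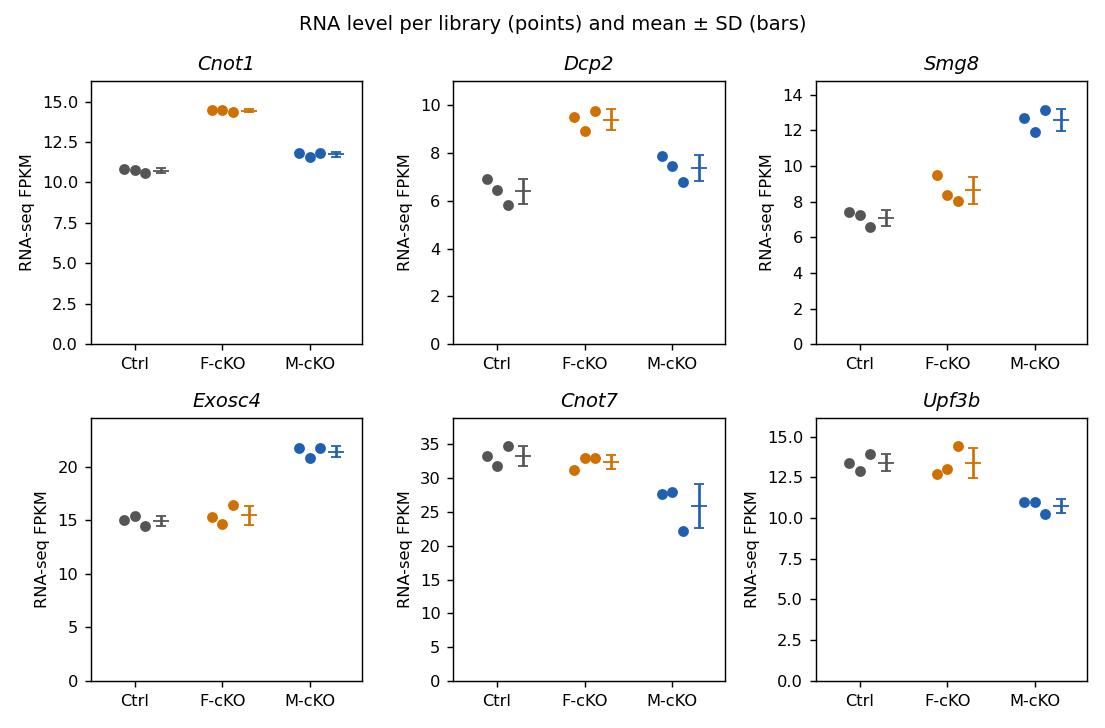
RNA-seq FPKM of 6 genes in each of the 9 libraries (points, 3 per group), with the group mean ± SD beside them and axes that start at 0. *Cnot1* and *Dcp2* are highest in *F*-cKO, *Smg8* and *Exosc4* are highest in *M*-cKO, and *Cnot7* and *Upf3b* are lowest in *M*-cKO.

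The exosome showed 0 calls among 10 genes in *F*-cKO by edgeR, with 1 higher at an unadjusted *P* below 0.05 (*Exosc3*, log2 fold change 0.29, adjusted *P* = 0.0865). In *M*-cKO 1 subunit rose and 1 fell (10% each way, against 15.5% and 14.1% of all genes, and 0% in *F*-cKO against 11.5% and 9.57%). *Exosc4*, a subunit of the exosome ring, had 15.03, 15.4 and 14.4 FPKM in Ctrl, 15.3, 14.7 and 16.4 FPKM in *F*-cKO and 21.7, 20.8 and 21.7 FPKM in *M*-cKO. The *M*-cKO libraries stood above all the others (0.51 ± 0.07, adjusted *P* = 0.000481). Its overlapping neighbour *Oplah* was expressed at 2.35 to 2.71 FPKM in Ctrl and 2.72 to 3.49 FPKM in *M*-cKO.

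*Exosc9*, another ring subunit, had 6.19, 6.03 and 6.74 FPKM in Ctrl, 7.33, 7.14 and 6.26 FPKM in *F*-cKO and 5.26, 4.80 and 5.64 FPKM in *M*-cKO. All *M*-cKO libraries were below all Ctrl libraries (−0.28 ± 0.09, adjusted *P* = 0.0363), and 5 of 11 alternatives lost the call. *Ccna2*, which overlaps it, was at 9.34 to 13.1 FPKM in Ctrl and 13.7 to 14.6 FPKM in *M*-cKO. The catalytic subunits *Dis3* and *Exosc10* had log2 fold changes between −0.08 and 0.04 in both knockouts.

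Nonsense-mediated decay had 3 of 9 genes higher in *F*-cKO (33.3%, against 11.5% of all genes) and 2 higher and 2 lower in *M*-cKO (22.2% each way, against 15.5% and 14.1% of all genes). The kinase *Smg1* (log2 fold change 0.23 ± 0.06), the bridging factor *Upf2* (0.31 ± 0.08) and the endonuclease *Smg6* (0.26 ± 0.07) rose in *F*-cKO. *Smg1* and *Upf2* were not called without *F*-cKO replicate 2 (adjusted *P* = 0.0716 and 0.0691), and the *F*-cKO call of *Smg6* was lost in 4 of 11 alternatives. *Smg6* also rose in *M*-cKO (0.24 ± 0.06, adjusted *P* = 0.0154), with 8.87 to 9.41 FPKM against 7.22 to 7.99 FPKM in Ctrl.

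*Smg8*, a regulator of the Smg1 kinase, showed the greatest RNA change of any member. It had 7.43, 7.22 and 6.56 FPKM in Ctrl, 9.48, 8.39 and 8.02 FPKM in *F*-cKO and 12.7, 11.9 and 13.1 FPKM in *M*-cKO. The 3 groups did not overlap, and the *M*-cKO rise was 1.77-fold (log2 fold change 0.82 ± 0.08, adjusted *P* = 6.77e-05), while that of *F*-cKO was not called (0.28 ± 0.09, adjusted *P* = 0.0642). *Smg9*, its partner in the kinase complex, had 9.13, 10.4 and 10.7 FPKM in Ctrl, 9.27, 8.74 and 7.89 FPKM in *F*-cKO and 8.38, 7.89 and 8.89 FPKM in *M*-cKO. It was called lower in *M*-cKO (−0.27 ± 0.09, adjusted *P* = 0.0373, lost in 5 of 11 alternatives) and had the lowest adjusted *P* among members with a negative value in *F*-cKO (−0.23, adjusted *P* = 0.101).

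*Upf3b*, the X-linked factor that bridges Upf2 to the exon junction complex, had 13.4, 12.9 and 13.9 FPKM in Ctrl, 12.7, 13.0 and 14.4 FPKM in *F*-cKO and 11.01, 10.97 and 10.3 FPKM in *M*-cKO. It was lower in *M*-cKO without overlap (−0.33 ± 0.07, adjusted *P* = 0.0047). *Xist*, which is expressed from the inactive X of female cells, was at 29.4 to 50.2 FPKM in Ctrl and 0.00491 to 20.8 FPKM in *M*-cKO, and the part of this difference in the value of *Upf3b* was not tested. The paralogue *Upf3a* had 8.26, 9.11 and 9.41 FPKM in Ctrl, 7.60, 8.66 and 7.93 FPKM in *F*-cKO and 8.14, 8.05 and 8.26 FPKM in *M*-cKO, and was not called. *Upf1*, the central helicase, had log2 fold changes of 0.15 and 0.14 in *F*-cKO and *M*-cKO, neither of them called.

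The promoters of *Smg8* and *Upf3b*, the genes of nonsense-mediated decay with the greatest RNA rise and fall in *M*-cKO, are shown to compare the sequence at their start sites. They were taken from RefSeq (GRCm38.p6), with 250 bases before and 50 after the start, at chr11:87086728-87087027 (minus strand) and chrX:37110273-37110572 (minus strand). The start used for *Smg8* is the outer end of the RefSeq gene, whereas that of *Upf3b* lies 149 bases inside it, so that much of the *Upf3b* window before the start is within the gene's outer bounds. Capitals mark 3 motifs found on either strand, the CCAAT box, the GC box with the letters GGGCGG, and a core bound by ETS factors with the letters CCGGAAG.
Smg8: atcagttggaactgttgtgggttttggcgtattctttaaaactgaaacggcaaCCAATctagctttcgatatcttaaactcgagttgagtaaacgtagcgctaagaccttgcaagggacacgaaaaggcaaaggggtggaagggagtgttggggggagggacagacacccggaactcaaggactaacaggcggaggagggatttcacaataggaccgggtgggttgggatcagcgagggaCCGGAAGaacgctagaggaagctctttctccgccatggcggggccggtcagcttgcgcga
Upf3b: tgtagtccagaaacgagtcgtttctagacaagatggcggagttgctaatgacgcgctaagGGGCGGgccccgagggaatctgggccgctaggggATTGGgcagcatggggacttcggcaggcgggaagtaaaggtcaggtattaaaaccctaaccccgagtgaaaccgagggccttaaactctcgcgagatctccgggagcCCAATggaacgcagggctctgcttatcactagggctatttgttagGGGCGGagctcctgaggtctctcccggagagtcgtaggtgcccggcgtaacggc
*Smg8* held 1 CCAAT box and 1 ETS core and no GC box, and *Upf3b* held 2 CCAAT boxes and 2 GC boxes.

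Of the 46 members, 38 had a promoter in the same RefSeq table, from which the first listed window of each of 27025 genes was used. GGGCGG on either strand was found in 28 of the 38 (73.7%), against 35.9% of all promoters, and CCGGAAG in 10 (26.3%) against 9.12%. CCAAT was found in 34.2% against 37.9%, and TATAAA in 2 members, *Tob1* and *Pabpc4* (5.26%), against 14.2%. The GC content of the member promoters had a median of 62.3% compared with 52.7% for all promoters. These matches describe the letters in the window and are not evidence of binding.

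The cytoplasmic poly(A)-binding proteins, which coat the tail that deadenylases remove, were not called in RNA-seq. *Pabpc1* had 68.1, 66.2 and 63.9 FPKM in Ctrl, 73.7, 68.8 and 71.5 FPKM in *F*-cKO and 63.4, 61.6 and 66.5 FPKM in *M*-cKO. *Pabpc4* had 27.1, 27.9 and 26.5 FPKM in Ctrl, 28.1, 29.4 and 28.9 FPKM in *F*-cKO and 30.9, 28.4 and 31.0 FPKM in *M*-cKO. The *F*-cKO libraries were above Ctrl for both genes and the *M*-cKO libraries for *Pabpc4* only, with adjusted *P* values from 0.0972 to 0.49.

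Ribosome footprints in *F*-cKO gave 0 called members of 46 in either direction by edgeR, as for all 14335 genes tested (0.00%), *Fto* itself included. No member reached an unadjusted *P* below 0.05 (1.58% of all genes did so on the high side and 0.635% on the low side). DESeq2 called 0 members, and of all genes 0.0349% higher and 0.00698% lower. By edgeR, 0 members were called without *F*-cKO replicate 2 too. The 11 genes with higher RNA in *F*-cKO had a median log2 fold change of 0.32 in RNA and 0.05 in footprints, and 6 of the 11 were above 0 in footprints. The share above 0 among all genes with higher RNA was not computed. *Dcp2* footprints were 3.63, 4.13 and 3.40 RPKM in Ctrl and 2.87, 3.55 and 3.45 RPKM in *F*-cKO, and those of *Cnot1* 21.6, 21.9 and 21.6 RPKM against 24.7, 16.4 and 20.9 RPKM. Both genes overlapped between the groups. The RNA estimate lay above the 95% confidence interval of the footprint change for 5 of the 11 (*Cnot1*, *Cnot6*, *Dcp2*, *Xrn1* and *Smg1*) and inside it for 6, where a footprint change as large as the RNA estimate lies within the error. These intervals are for single genes, without adjustment. They leave out the error of the RNA estimates, for which the 11 genes were selected as high. The edgeR test of TE, which holds both errors, called 0 members in *F*-cKO.

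The members nearest to a call in *F*-cKO footprints were *Lsm1*, a subunit of the ring that binds deadenylated RNA, and *Cnot8* on the low side and *Upf2* and *Upf3b* on the high side. *Lsm1* had 15.4, 12.8 and 12.4 RPKM in Ctrl and 8.58, 6.55 and 12.04 RPKM in *F*-cKO, all lower than Ctrl (log2 fold change −0.55 ± 0.23, adjusted *P* = 0.73). *Upf2* had 18.5, 18.5 and 18.7 RPKM in Ctrl and 25.1, 18.7 and 19.2 RPKM in *F*-cKO (0.22 ± 0.13, adjusted *P* = 0.73). All *F*-cKO libraries of *Upf2* exceeded Ctrl, replicate 2 by the least. *Cnot8* had 67.1, 64.1 and 56.3 RPKM in Ctrl and 49.4, 29.3 and 60.1 RPKM in *F*-cKO, which overlapped, as did *Upf3b*.

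In *M*-cKO, footprints of 2 members were higher and of 4 lower, where 7.13% of all 14314 genes were higher and 7.50% lower (4.35% and 8.7% of the members). The median log2 fold change of the members was −0.10 against 0.00 for all genes, and in 17 of 46 all *M*-cKO libraries lay below all Ctrl libraries (21.0% of all genes did so). The shift was uneven, with member medians of −0.02, −0.30 and −0.13 in *M*-cKO replicates 1 to 3 and medians over all genes of 0.00, −0.13 and −0.01, and replicate 2, the shallowest of the 3, held the lowest of 9 values for 14 members. DESeq2 gave 4 higher and 6 lower, where it called 11.3% and 10.6% of all genes. The 7 interneuron and ganglionic eminence markers summed to 62.6 to 120.0 RPKM in *M*-cKO against 38.2 to 57.1 RPKM in Ctrl, with 3 of 7 called higher. Those of intermediate progenitors summed to 110.5 to 148.1 RPKM against 78.9 to 107.7 RPKM, with 0 of 4 called. The part of both lists in the footprint results was not tested. None of the 6 calls held in all 11 alternatives. Leaving out any Ctrl library left 0 calls in either direction, and leaving out *M*-cKO replicate 1 left 1 higher and 0 lower. Leaving out *M*-cKO replicate 2 left 1 lower. The shares of all genes in these smaller fits are not given.

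The higher footprints were those of *Exosc4* and *Dcp1a*. *Exosc4* had 22.0, 20.4 and 21.3 RPKM in Ctrl and 38.0, 27.7 and 29.7 RPKM in *M*-cKO, which lay above all Ctrl libraries as its RNA did (0.59 ± 0.12, adjusted *P* = 0.0233). *Dcp1a* had 2.36, 2.58 and 2.86 RPKM in Ctrl and 3.83, 3.49 and 3.41 RPKM in *M*-cKO (0.47 ± 0.12, adjusted *P* = 0.0393). Both genes thus had more RNA and more footprints in *M*-cKO.

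The lower footprints were those of *Cnot8*, *Xrn2*, *Exosc9* and *Lsm1*. *Cnot8* had 67.1, 64.1 and 56.3 RPKM in Ctrl and 44.5, 32.0 and 47.7 RPKM in *M*-cKO (−0.59 ± 0.14, adjusted *P* = 0.0324), with no matching difference in RNA (−0.02). *Xrn2* had 84.5, 93.0 and 92.7 RPKM in Ctrl and 72.3, 61.9 and 75.5 RPKM in *M*-cKO (−0.35 ± 0.09, adjusted *P* = 0.04). In each of the 4 genes the *M*-cKO libraries lay below all Ctrl libraries, and *Exosc9* (−0.39) also had lower RNA. Its overlapping neighbour *Ccna2* had 17.3 to 18.7 RPKM in Ctrl and 11.1 to 18.4 RPKM in *M*-cKO.

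**Figure D4:**
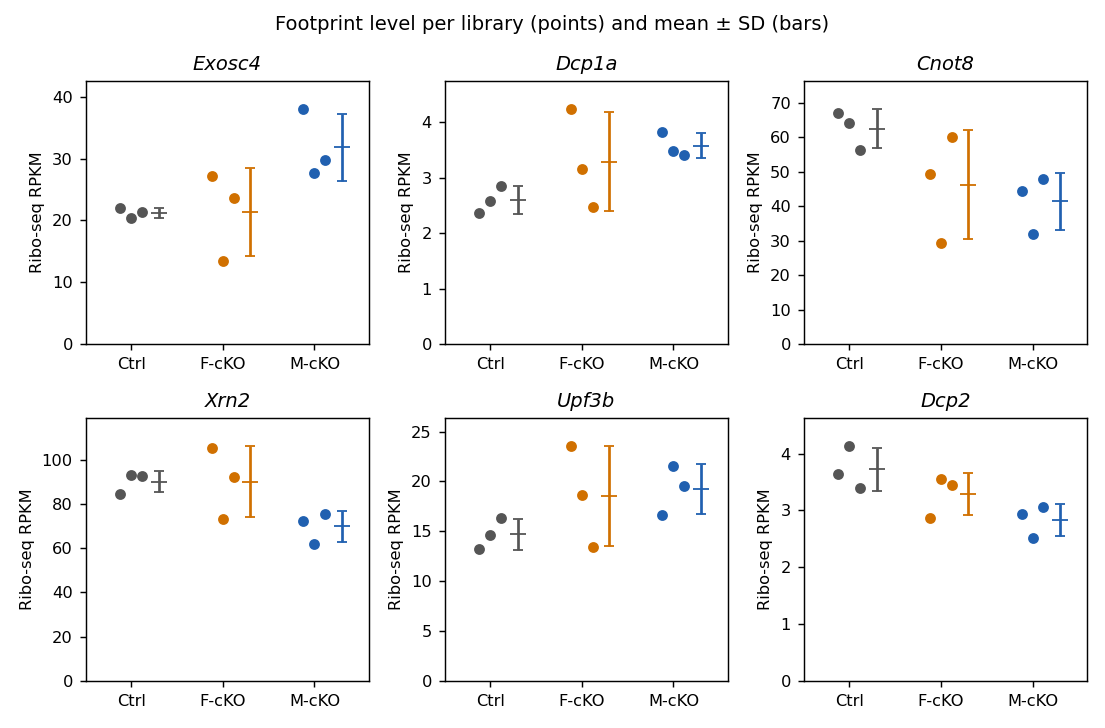
Ribo-seq RPKM of 6 genes in each of the 9 libraries (points, 3 per group), with the group mean ± SD beside them and axes that start at 0. In *M*-cKO, *Exosc4* and *Dcp1a* lie above and *Cnot8* and *Xrn2* below all Ctrl libraries, while the *F*-cKO points spread widely.

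The 10 members called in *M*-cKO RNA were also examined in footprints, which come from separate libraries. The sign was the same in 8 of 10, and the share among all genes called in RNA was not computed. *Smg8* footprints were 27.2, 21.1 and 24.1 RPKM in *M*-cKO against 19.2, 20.0 and 18.3 RPKM in Ctrl, above Ctrl in every library but not called (0.34, adjusted *P* = 0.0575). *Cnot7* footprints were 11.7, 8.11 and 11.6 RPKM against 12.7, 15.01 and 13.8 RPKM (−0.40, adjusted *P* = 0.0846). The exceptions were *Cnot11* (−0.14) and *Upf3b*.

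*Upf3b* footprints were 13.2, 14.6 and 16.3 RPKM in Ctrl, 23.5, 18.6 and 13.5 RPKM in *F*-cKO and 16.6, 21.6 and 19.6 RPKM in *M*-cKO. Every *M*-cKO library was above every Ctrl library in footprints and below every one in RNA. The TE change, tested as the interaction of assay and genotype over 12 libraries, was a log2 difference of 0.80 ± 0.16 (adjusted *P* = 0.0218). It was the only member called in *M*-cKO TE, where 1.89% of all 13208 genes were higher and 1.18% lower. In 7 of 17 alternatives the adjusted *P* was above 0.05, among them the fit of all 18 libraries (0.264) and the omission of 5 RNA-seq libraries (0.0505 to 0.0671) or of Ribo-seq Ctrl replicate 2 (0.0629), with log2 differences from 0.67 to 0.92 throughout.

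*Upf3a* had the next lowest adjusted *P* on the high side in *M*-cKO TE (0.42 ± 0.11, adjusted *P* = 0.0575), from footprints of 8.43, 8.51 and 8.26 RPKM in Ctrl and 10.3, 9.504 and 9.16 RPKM in *M*-cKO. On the low side *Dcp2* (−0.51 ± 0.14, adjusted *P* = 0.0641) and *Smg8* (−0.41 ± 0.12, adjusted *P* = 0.0802) came nearest. *Dcp2* footprints were 2.93, 2.52 and 3.06 RPKM in *M*-cKO, below all Ctrl libraries, while its RNA overlapped with Ctrl. None of these 3 passed the threshold in edgeR, where 8 members were lower and 3 higher at an unadjusted *P* below 0.05 (9.21% and 12.3% of all genes). DESeq2 called 5 members lower and 2 higher, and of all genes 3.86% lower and 3.99% higher.

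In *F*-cKO, TE of 33 of 46 members was below 0 and of 13 above 0 on the log2 scale (48.9% of all genes were above 0), with a median difference of −0.20 against −0.01 for all genes. No member was called among 13225 genes, of which 0.00% were called, with or without Ribo-seq *F*-cKO replicate 2. At an unadjusted *P* below 0.05, 8 members were lower and 0 higher, compared with 6.18% and 3.11% of all genes, and DESeq2 called *Dcp2* alone among the members and 0.295% of all genes lower. *Cnot1* (−0.50 ± 0.11, adjusted *P* = 0.372) and *Smg1* (−0.40 ± 0.11, adjusted *P* = 0.431) had the lowest adjusted *P*, with *Upf3a* (0.24) and *Upf3b* (0.35) on the other side. *Smg1* RNA was 8.26, 8.10 and 8.504 FPKM in Ctrl and 9.40, 9.87 and 10.1 FPKM in *F*-cKO, all above Ctrl. Its footprints were 8.85, 8.95 and 9.35 RPKM in Ctrl and 8.38, 6.85 and 8.75 RPKM in *F*-cKO, all below Ctrl. *Upf3a* footprints in *F*-cKO were 10.7, 6.77 and 9.39 RPKM, on both sides of Ctrl. The TE contrast contains the same RNA-seq libraries as the RNA contrast, so a gene measured high in RNA is measured low in TE by the same error. Between the knockouts, 0 members differed in footprints (0.00% of 14262 genes) or in TE (0.00% of 13162 genes). DESeq2 also called 0 members, and of all genes 1.25% higher and 0.196% lower in footprints and 0.122% and 0.0152% in TE. At an unadjusted *P* below 0.05 edgeR had 1 higher and 1 lower in footprints (4.98% and 3.11% of all genes), and 1 higher and 0 lower in TE (2.44% and 1.67%).

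**Figure D5:**
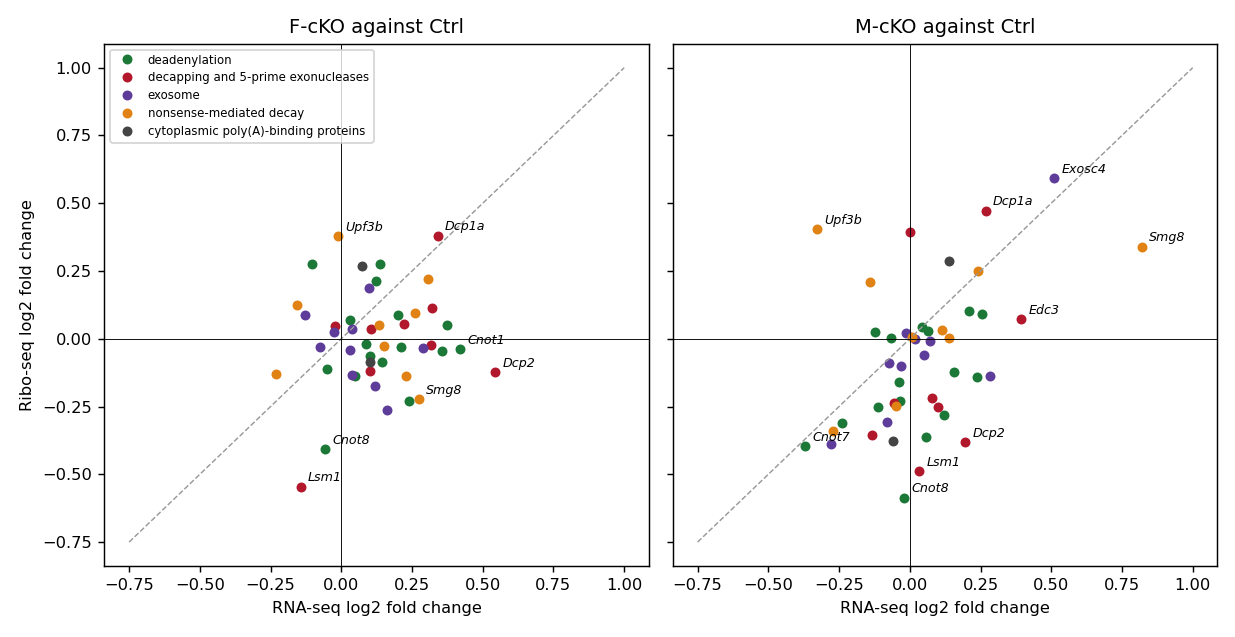
Log2 fold change against Ctrl in Ribo-seq (vertical) and in RNA-seq (horizontal) for the 46 genes, coloured by role, in *F*-cKO (left) and *M*-cKO (right). The dashed line marks equal changes. *Cnot1* and *Dcp2* lie far to the right near a footprint change of 0 in *F*-cKO, and *Upf3b* is at −0.33 in RNA and 0.41 in footprints in *M*-cKO.

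Paralogue pairs differed more in footprints than in RNA for some genes. The mean *Pabpc1* to *Pabpc4* ratio was 2.43 in FPKM and 24.4 in RPKM in Ctrl, and 2.12 and 15.5 in *M*-cKO. *Pabpc4* footprints were 2.56, 2.69 and 2.75 RPKM in Ctrl and 3.20, 3.25 and 3.24 RPKM in *M*-cKO, while those of *Pabpc1* were 68.8, 69.2 and 57.7 RPKM and 52.4, 44.2 and 53.3 RPKM. The groups did not overlap for either gene and neither was called (adjusted *P* = 0.164 for *Pabpc4* and 0.0505 for *Pabpc1*). The *Tob1* to *Tob2* ratio was 4.02 in FPKM and 8.83 in RPKM in Ctrl.

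Other genes of the pathway were listed separately, comprising the Lsm ring, the Ski and TRAMP complexes, uridylation, the exon junction complex and termination, and a list of deadenylase adaptors with related deadenylases and poly(A)-binding partners. Of 57 tested, 21 were higher and 1 lower in *F*-cKO RNA, and 15 were higher and 1 lower in *M*-cKO RNA, with medians of 0.15 and 0.11 on the log2 scale. These are 36.8% and 1.75% in *F*-cKO, where 11.5% and 9.57% of all genes were called, and 26.3% and 1.75% in *M*-cKO, where 15.5% and 14.1% were. The adaptor list held 13 of the 21 in *F*-cKO and 11 of the 15 in *M*-cKO, out of 20 tested, and includes *Btg2*, which is also an intermediate progenitor marker. In *F*-cKO the smallest adjusted *P* values were those of *Ago2* (0.55 ± 0.07, adjusted *P* = 0.00338), the Argonaute that carries microRNAs, and *Gspt1* (0.45 ± 0.06, adjusted *P* = 0.00352), a translation termination factor, and the lower gene was *Noct* (−0.27 ± 0.08, adjusted *P* = 0.0416).

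In *M*-cKO RNA, *Ythdf2*, the m6A reader that recruits Ccr4-Not, was higher (0.70 ± 0.06, adjusted *P* = 3.99e-05), as was *Pelo*, a rescue factor of stalled ribosomes (1.32 ± 0.13, adjusted *P* = 7.48e-05). *Zcchc7*, a subunit of the TRAMP complex, was the lower gene (−0.80 ± 0.10, adjusted *P* = 0.000223). In *M*-cKO footprints 6 of the 57 were higher and 3 lower (10.5% and 5.26%, against 7.13% and 7.50% of all genes), and *Ythdf2* (0.86 ± 0.16) and *Pelo* (1.14 ± 0.21) were among the higher. In *F*-cKO *Ythdf2* and *Pelo* had RNA values of 0.03 and 0.08 and were not called.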

How the data were processed

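Cortices taken at E15.5 gave 3 libraries per group and assay, grouped by the genotype in the labels. Ribo-seq lysates held cycloheximide. The authors deposited RNA-seq read counts and FPKM (reads aligned with HISAT2 2.0.5, counter not given in the sources used here) and Ribo-seq counts and RPKM (TopHat2 and HTSeq). Per the labels, the submitters' processing notes name build mm10. Ribo-seq genes with blank counts (40490) were not used. Symbols were matched by Ensembl identifier.

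Counts were fitted in R 4.3.3 with edgeR 4.0.16 (filterByExpr, minimum count 10 and minimum total 15, TMM, quasi-likelihood test), each comparison over its own libraries, and TE as an interaction. RiboDiff was not run. Tests were tested on simulated data. Alternatives were RLE, no filter, DESeq2 1.42.0, all groups fitted together, the replicate number as a block, and each library left out. TE levels were also computed with pseudocounts of 0.1 and 1.

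All members may be named. Values in every library are given for the 2 members of lowest adjusted *P* per direction in each comparison with Ctrl, members called in TE, 6 paralogue pairs and the targeted genes. Of the other decay genes, the 2 smallest in each direction of the RNA comparisons are named. Library values of other members, and *Xist*, *Ccna2*, *Oplah* and *Vps37a*, were chosen after values were seen. Members and lists were chosen with earlier results of these data known. Counting intervals do not apply to FPKM or RPKM values.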

Additional observations from a re-analysis of the deposited data

Results flagged for a closer look

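The *M*-cKO effect on *Upf3b* differed between the assays. Its log2 change was −0.33 in RNA and 0.41 in footprints, and the interaction was 0.801 ± 0.161 on the log2 scale by edgeR's quasi-likelihood test (adjusted *P* = 0.0218). All 3 *M*-cKO libraries lay below Ctrl in RNA and above Ctrl in footprints. *Xist* RNA was lower in the *M*-cKO RNA-seq libraries than in Ctrl, and its part in this result was not tested.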

How the results depend on the processing

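No call of a member changed sign under any alternative. Of the 468 values of called members under alternatives, 351 kept their call and 117 fell short of the threshold with the same direction. Leaving out 1 library at a time gave 6 to 10 members higher in *F*-cKO RNA (11 with all libraries), 4 to 6 higher and 2 to 5 lower in *M*-cKO RNA (6 and 4), and 6 to 10 lower in *M*-cKO than in *F*-cKO (12). In *M*-cKO Ribo-seq it gave 0 to 2 higher and 0 to 3 lower (2 and 4), and in *M*-cKO TE 0 to 2 higher and 0 to 3 lower (1 and 0). The shares of all genes in these fits are not given, so whether members lost more calls than genes in general is not shown. Without a filter 10 members were higher in *M*-cKO RNA (21.7%, against 10.2% of all genes). DESeq2 called 4 members higher and 6 lower in *M*-cKO Ribo-seq (11.3% and 10.6% of all genes), 2 higher and 5 lower in *M*-cKO TE (3.99% and 3.86%), and 1 lower in *F*-cKO TE (0.295%). RLE scaling left 2 lower in *M*-cKO Ribo-seq (6.66% of all genes). Fitting all groups together left 0 higher and 0 lower in *M*-cKO Ribo-seq (0.202% and 0.0419% of all genes) and 0 higher in *M*-cKO TE (0.0603%). That fit includes the *F*-cKO libraries, whose footprints had a greater spread. The cause of the lost calls was not tested.

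Same-numbered libraries of different genotypes did not deviate together within an assay (correlations from −0.144 to 0.163 in RNA-seq and from −0.278 to 0.156 in Ribo-seq). With 3 libraries per group this cannot settle whether the numbers mark a pairing. RNA-seq libraries were not set against Ribo-seq libraries of the same number. With the replicate block, 9 members were higher in *F*-cKO RNA, 5 higher and 3 lower in *M*-cKO RNA, 1 higher and 0 lower in *M*-cKO Ribo-seq (4.76% and 4.46% of all genes), and 1 higher in *M*-cKO TE. The shares of all genes under the block are given for Ribo-seq only, so the RNA and TE counts cannot be set against genes in general. The median TE level of the members moved by less than the replicate spread with every pseudocount, filter and omitted library (1.39, 1.28 and 1.24 for Ctrl, *F*-cKO and *M*-cKO).

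The precision of *F*-cKO footprints limits what can be seen, as the biological coefficient of variation was 0.379 in that comparison against 0.103 in RNA-seq.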
